A study of Mus musculus with 5 samples.

Results

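The retinoid binding and synthesis genes described here are *Crabp1*, *Crabp2*, *Rbp4*, *Rbp7*, *Aldh1a1*, *Aldh1a2*, *Aldh1a3*, *Rarres1* and *Rarres2*. They were taken by symbol from the gene lists of the deposited matrices, where all 9 were found among 27998 genes. Their unique molecular identifiers (UMIs, 1 per captured transcript molecule) were followed through the fibroblast, luminal and endothelial barcodes of 5 single-cell RNA-seq libraries of the mouse mammary gland. Over all barcodes the 9 genes held from 18 UMIs (*Aldh1a2*) to 114844 UMIs (*Rarres2*).

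Each library came from inguinal (4th) mammary glands of female BALB/cj mice aged 30 weeks, and every group, the control included, had been ovariectomized 20 weeks before a treatment of 1 week. OVX received DMSO vehicle by injection and matched food containing DMSO. OVX_E2 received 17β-estradiol (E2, 1 µg per animal) by daily intraperitoneal injection, and OVX_E2_P4 received E2 with progesterone (P4, 0.1 mg per animal). OVX_E2_PBDE and OVX_E2_P4_PBDE received the same hormones and food carrying 3 polybrominated diphenyl ethers (PBDEs), the flame retardants BDE-47, BDE-100 and BDE-153, at 7.1, 0.4 and 0.9 mg/kg. There was 1 library per group, so no difference between treatments has a replicate check and no test against animals could be made. How many mice went into a library is not given in the sources used here. The laboratory numbers of the PBDE libraries are adjacent and lie apart from those of the other 3, so PBDE and any difference in handling cannot be told apart.

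Retinol travels in blood bound to RBP4, enters cells, and is oxidised first to retinaldehyde and then, by the ALDH1A enzymes, to retinoic acid. Inside cells retinol is held by cellular retinol-binding proteins, of which RBP7 is 1, and retinoic acid by CRABP1 and CRABP2. Retinoic acid acts through the nuclear receptors RAR and RXR. *Rarres1* and *Rarres2* were named for their response to retinoid treatment, and *Rarres2* encodes chemerin, a secreted chemoattractant and adipokine. In the mammary gland, ALDH activity is widely used to mark luminal progenitor cells.

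The libraries held 2233 to 3536 barcodes with medians of 5345 to 8698 UMIs, and 14317 of 14344 barcodes passed the thresholds. Clusters named from markers gave 7250 fibroblast-like, 2540 L-Hor-like (luminal hormone-sensing), 1122 L-Alv-like (luminal alveolar), 261 proliferating luminal-like, 424 basal-like, 235 endothelial-like and 532 hematopoietic-like barcodes. A further 1932 luminal barcodes carried markers of both lineages and are called mixed, as are 21 others. The members and the wider retinoid pathway were kept out of the genes used for clustering. The 6 endothelial markers summed to 2776 to 3418 CPM in endothelial-like barcodes and to at most 28.5 CPM in the other classes, where CPM is UMIs per 1000000 UMIs of the barcodes summed. Pericyte markers also reached 844 to 1308 CPM in the endothelial-like class. Intervals are exact 95% Poisson intervals for levels and Clopper-Pearson intervals for shares, and cover counting error only. Levels in hematopoietic-like barcodes are given beside those of other classes, as a cell type that should lack most of these genes. The 6 fibroblast markers summed to 1449 to 9110 CPM there (mean 4454 CPM), against means of 1665 CPM in L-Hor-like, 1146 CPM in L-Alv-like and 26554 CPM in fibroblast-like barcodes, so for fibroblast genes that level is a high mark for luminal cells. Pairs of libraries shared 3 to 15 barcode sequences. The kit reads the 3′ ends of transcripts, so levels are compared between cells for 1 gene and not between genes.

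Among the cell classes, 5 members had their highest mean level over libraries in fibroblast-like barcodes, 1 in luminal barcodes and 2 in endothelial-like barcodes. The fibroblast members were *Crabp1* (55.0 ± 35.8 CPM, SD, n = 5 libraries), *Rbp4* (45.1 ± 9.35 CPM), *Aldh1a1* (53.1 ± 11.2 CPM), *Aldh1a3* (123 ± 19.7 CPM) and *Rarres2* (2331 ± 378 CPM), where each SD is taken over libraries of different treatment. *Crabp2* was the luminal member, with 106 ± 45.4 CPM in L-Alv-like barcodes, and *Rbp7* the clear endothelial one, with 971 ± 250 CPM. *Rarres1* had a mean of 7.0 CPM in endothelial-like and 6.36 CPM in fibroblast-like barcodes, but the endothelial value rests on 12 UMIs and the order of these neighbours is not resolved. Likewise *Aldh1a3* in fibroblast-like barcodes did not stand apart from its 111 ± 20.1 CPM in L-Alv-like barcodes. *Aldh1a2* was nearly undetected outside hematopoietic-like barcodes.

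**Figure D1:**
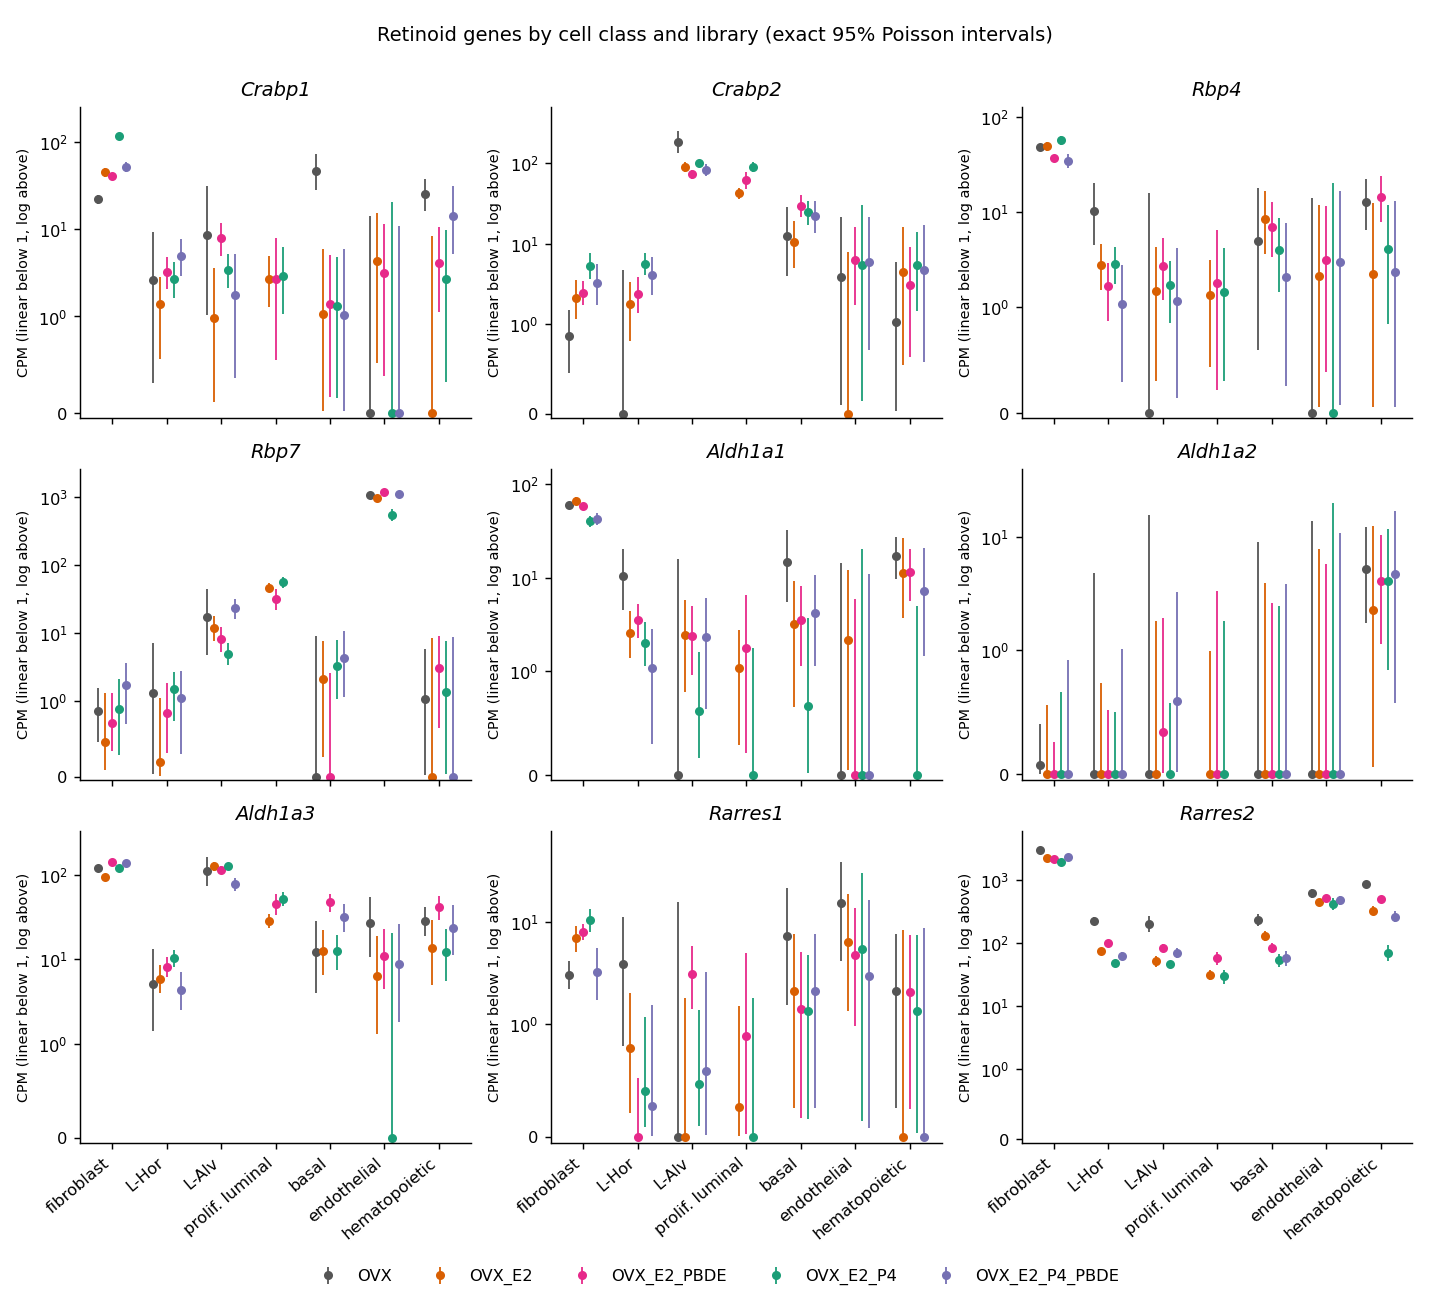
Level of each of the 9 genes (y axis, CPM, linear below 1 and logarithmic above) in 7 cell classes (x axis) of the 5 libraries (colours), as points with exact 95% Poisson intervals; classes with fewer than 20 barcodes are left out. *Rbp7* in endothelial-like barcodes lies between 545 and 1180 CPM in every library, *Crabp2* is highest in L-Alv-like barcodes, and *Aldh1a3* is high in both fibroblast-like and L-Alv-like barcodes.

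*Crabp1* and *Rarres1*, highest in the same fibroblast subset, and *Rbp7*, highest in endothelial-like barcodes, carry several of the results below, and the 250 bases before the RefSeq start of each are printed to show the DNA at which their transcription begins. The windows come from RefSeq on GRCm38.p6, in which 6 of the 9 members were matched, and run 5′ to 3′ along the gene's strand. Capitals mark GGGCGG, the GC box, or its reverse complement. The windows are chr9:54764498-54764747 on the plus strand for *Crabp1*, chr3:67515524-67515773 on the minus strand for *Rarres1* and chr4:149454969-149455218 on the minus strand for *Rbp7*.
Crabp1: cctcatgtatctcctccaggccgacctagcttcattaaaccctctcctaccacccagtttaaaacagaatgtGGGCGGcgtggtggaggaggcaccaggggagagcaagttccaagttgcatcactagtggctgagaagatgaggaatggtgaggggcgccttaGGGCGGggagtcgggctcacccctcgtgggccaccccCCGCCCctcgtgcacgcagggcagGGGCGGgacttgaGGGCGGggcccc
Rarres1: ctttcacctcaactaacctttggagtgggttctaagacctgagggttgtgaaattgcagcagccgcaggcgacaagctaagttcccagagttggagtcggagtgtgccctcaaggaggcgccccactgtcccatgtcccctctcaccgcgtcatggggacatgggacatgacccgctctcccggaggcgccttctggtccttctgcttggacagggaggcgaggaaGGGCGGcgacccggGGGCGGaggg
Rbp7: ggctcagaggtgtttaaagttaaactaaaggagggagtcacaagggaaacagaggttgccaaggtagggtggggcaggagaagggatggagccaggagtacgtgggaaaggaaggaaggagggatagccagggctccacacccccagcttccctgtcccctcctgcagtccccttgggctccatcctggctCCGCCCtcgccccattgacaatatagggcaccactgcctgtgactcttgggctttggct
The *Crabp1* window held 5 GC boxes, 12, 25, 49, 86 and 178 bases before the start, and was 63.6% G or C. The *Rarres1* window held 2, at 10 and 24 bases, with 62.4% G or C. The *Rbp7* window held 1, at 59 bases on the opposite strand, with 58.4% G or C. Of 32851 RefSeq windows of this length 32.7% held GGGCGG on either strand, and the median window was 52.4% G or C. The letters TATAAA, found in 12.4% of all windows, were in none of the 3 on either strand. The CCAAT letters, in 33.9% of all windows, were in none of them either. The same held for the nuclear-receptor letters AGGTCA (14.0% of all windows) and for the letters AGTTCA (11.8% of all windows). These matches describe the letters of the windows and were not tied to the measured levels.

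*Crabp1* (chr9:54764748-54773110, GRCm38, plus strand, 4 exons) encodes a cytosolic retinoic acid-binding protein. Its UMIs were concentrated in 1 of the 4 fibroblast subsets, the subset named from *Spon1*, *Tnc*, *Postn* and *Lrrc15*. There the *Crabp1* level was 408 CPM in OVX (354 to 468), 328 CPM in OVX_E2 (290 to 369), 341 CPM in OVX_E2_PBDE (312 to 372), 568 CPM in OVX_E2_P4 (524 to 614) and 484 CPM in OVX_E2_P4_PBDE (413 to 563). In the *Pi16* subset, the largest group of fibroblasts, it lay between 1.45 and 4.92 CPM, and in the *Inmt* subset between 10.2 and 38.3 CPM. The lowest *Spon1* value was above the highest value of either. Subsets bear the name of the marker group with the highest mean standardized level, and a name gene need not be highest there. *Inmt* itself was higher in the *Spon1* than in the *Inmt* subset in every library but OVX_E2_P4 (175 against 110 CPM in OVX_E2). *Col15a1* was higher in the *Spon1* than in the *Col15a1* subset in every library but OVX (569 against 313 CPM in OVX_E2). The *Col15a1* subset of OVX_E2_P4_PBDE held only 16 barcodes. After every barcode was thinned to 3000 UMIs, *Crabp1* was found in 31.0% to 41.2% of barcodes of the *Spon1* subset. The corresponding range was 0.527% to 2.03% in the *Pi16* subset and 0 to 2.60% in hematopoietic-like barcodes. Before thinning the *Spon1* subset ranged from 42.2% to 51.1%, with median depths of 3992 to 6350 UMIs beside 4934 to 7384 UMIs in hematopoietic-like barcodes. The shallowest barcode held 3374 UMIs, so thinning left none out.

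In luminal cells the *Crabp1* level was low, at 1.38 to 4.93 CPM in L-Hor-like and 0.982 to 8.61 CPM in L-Alv-like barcodes. OVX gave 46.8 CPM in basal-like barcodes, against 1.05 to 1.41 CPM in the other libraries, but 17 of those 19 UMIs came from 2 barcodes. Likewise 22 of the 24 *Crabp1* UMIs in hematopoietic-like barcodes of OVX came from 2 barcodes.

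The subset itself had unequal size and composition among the libraries. It made up 4.45% (3.68% to 5.32%) of fibroblast-like barcodes in OVX, 12.4% in OVX_E2, 11.8% in OVX_E2_PBDE, 19.4% (17.0% to 22.1%) in OVX_E2_P4 and 8.46% (6.71% to 10.5%) in OVX_E2_P4_PBDE. OVX stood apart in some of the markers that name it. In the subset of OVX, *Lrrc15* was at 10.1 CPM against 96.7 to 193 CPM in the other libraries, and *Postn* was also lower (1006 against 3877 to 7453 CPM). *Tnc* was higher (237 against 38.1 to 80.8 CPM), and *Spon1* lay within the range of the others (967 against 798 to 1272.5 CPM). *Inmt*, which does not name this subset, was higher (688 against 138 to 191 CPM). It was also higher in the OVX *Pi16* (80.9 against 19.5 to 32.8 CPM) and *Col15a1* subsets (257 against 19.8 to 42.9 CPM). The *Col15a1* range leaves out OVX_E2_P4_PBDE, with 16 barcodes. The OVX subset thus carries the same name with other marker levels. By mean level, 4 members were highest in the *Spon1* subset among the fibroblast subsets (*Crabp1*, *Crabp2*, *Aldh1a1* and *Rarres1*), *Crabp2* at only 1.97 to 8.22 CPM, and without OVX only *Crabp1* and *Rarres1* were.

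Over all fibroblast-like barcodes, the share of that subset, the level within it and the level outside it entered the *Crabp1* level. The subset held 67.7% of the fibroblast *Crabp1* UMIs in OVX, 79.3% in OVX_E2_P4_PBDE and 90.7% to 95.8% in the other libraries. It was 21.8 CPM in OVX, 45.0 CPM in OVX_E2, 40.3 CPM in OVX_E2_PBDE, 116 CPM in OVX_E2_P4 and 51.9 CPM in OVX_E2_P4_PBDE, so OVX was lowest and OVX_E2_P4 highest. OVX_E2 was 2.06-fold OVX (1.75 to 2.42), while within the subset the ratio was 0.802 (0.667 to 0.968) and the subset's share of barcodes was 2.79-fold. Its share of fibroblast UMIs, on which the CPM depends, was 3.46-fold. OVX_E2_P4 was 2.57-fold OVX_E2 (2.24 to 2.96), with a ratio of 1.73 (1.5 to 2.00) within the subset and of 1.57 for its share. Both the share and the level were higher in that contrast. OVX_E2_P4_PBDE was 0.449-fold OVX_E2_P4 (0.381 to 0.525), where the ratio within the subset was 0.855 (0.713 to 1.01) and that of the share 0.435. OVX_E2_PBDE and OVX_E2 differed little, with a ratio of 0.895 (0.778 to 1.04). OVX_E2_P4_PBDE was 1.29-fold OVX_E2_PBDE (1.09 to 1.51), with a ratio of 1.42 (1.18 to 1.69) within the subset and of 0.714 for its share. Outside the subset the ratio of that contrast was 2.80, on 43 against 53 UMIs, and it was 0.612 to 1.96 in the other contrasts.

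A few barcodes carried much of the *Crabp1* signal. In the *Spon1* subset of OVX_E2_P4, 2 barcodes with 112 and 97 UMIs held 33.6% of 622 UMIs, and in the other libraries the 2 highest barcodes held 8.67% to 32.1%. Without those 2 barcodes in each library the subset's levels were 346 CPM in OVX, 258 CPM in OVX_E2, 315 CPM in OVX_E2_PBDE, 385 CPM in OVX_E2_P4 and 341 CPM in OVX_E2_P4_PBDE. The highest value then lay 1.49-fold (1.26 to 1.77) above OVX_E2. Over all fibroblast-like barcodes the ratios became 1.84 for OVX_E2 to OVX, 2.20 for OVX_E2_P4 to OVX_E2 and 0.494 for OVX_E2_P4_PBDE to OVX_E2_P4. The first thus fell under a 2-fold difference. The ratio of OVX_E2_P4_PBDE to OVX_E2_PBDE became 1.05 (0.866 to 1.25), and 1.09 (0.873 to 1.33) within the subset, so neither stayed clear of 1. That of OVX_E2_PBDE to OVX_E2 became 1.04 (0.892 to 1.22). The intervals of the preceding paragraphs do not include this variation between cells.

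**Figure D2:**
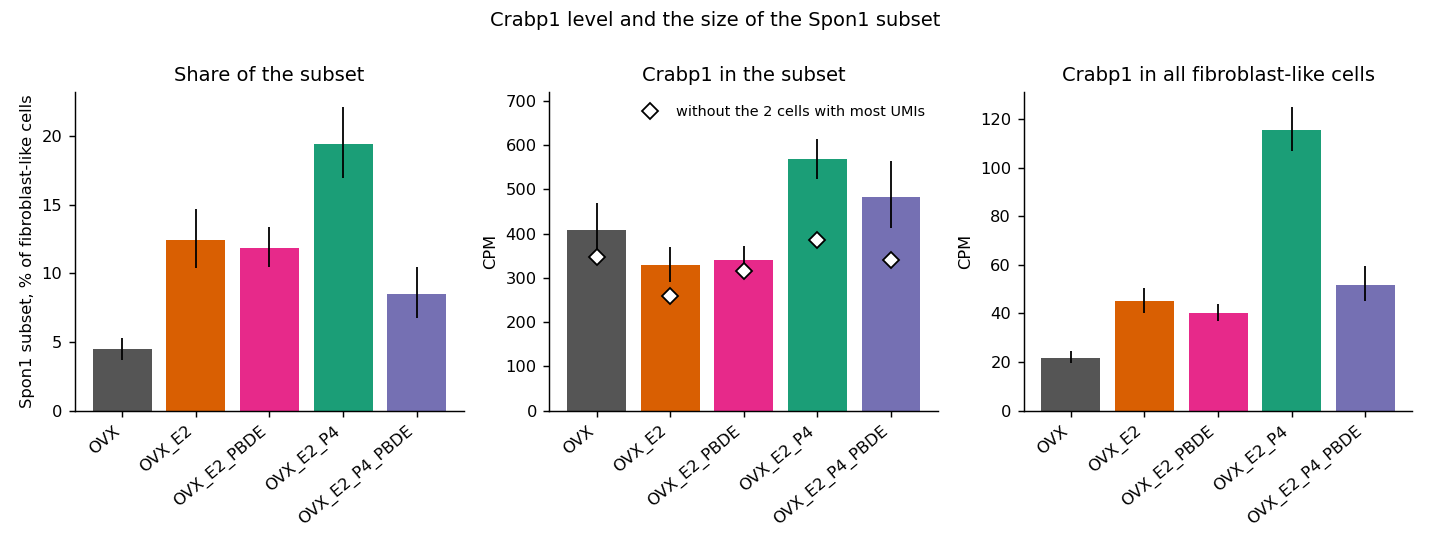
Bars by library (x axis) for the share of the *Spon1* subset among fibroblast-like barcodes (left, %, with Clopper-Pearson intervals), the *Crabp1* level within that subset (middle, CPM, with Poisson intervals and diamonds for the level without the 2 barcodes of most UMIs) and the *Crabp1* level over all fibroblast-like barcodes (right, CPM). OVX_E2_P4 is highest in all 3 panels, while OVX is lowest on the left and right but not in the middle.

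*Crabp2* (chr3:87948666-87953376, plus strand, 4 exons), whose product carries retinoic acid to its nuclear receptors, was a luminal gene with its highest level in L-Alv-like barcodes. The level there was 185 CPM in OVX (134 to 249, 43 UMIs in 32 barcodes), 89.8 CPM in OVX_E2, 72.5 CPM in OVX_E2_PBDE, 100.1 CPM in OVX_E2_P4 and 81.9 CPM in OVX_E2_P4_PBDE. OVX was highest and the other 4 libraries lay close together. L-Hor-like barcodes held 0 to 5.66 CPM and fibroblast-like barcodes 0.874 to 5.35 CPM, both near the 1.06 to 5.42 CPM of hematopoietic-like barcodes. Proliferating luminal-like barcodes held 42.4 to 89.4 CPM, mixed luminal barcodes 37.5 to 63.7 CPM and basal-like barcodes 10.5 to 29.5 CPM. After thinning, *Crabp2* was found in 17.6% to 37.5% of L-Alv-like barcodes and in 0.617% to 3.64% of hematopoietic-like barcodes.

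The ratio of OVX_E2 to OVX for *Crabp2* in L-Alv-like barcodes was 0.477 (0.347 to 0.693). It was 0.609 once the 2 barcodes with the most UMIs were left out of each library. The other 4 contrasts gave ratios of 0.807 to 1.13 in that class. In L-Hor-like barcodes OVX_E2_P4 was 2.93-fold OVX_E2 (1.53 to 7.43), on 42 against 9 UMIs. The level in OVX_E2_P4 was 5.66 CPM (4.08 to 7.65), beside 5.42 CPM in hematopoietic-like barcodes of that library. In proliferating luminal-like barcodes OVX_E2_P4 was 2.11-fold OVX_E2 (1.70 to 2.63).

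*Rbp7* (chr4:149449687-149454978, minus strand, 4 exons), a cellular retinol-binding protein known from vascular endothelium and adipose tissue, was found mainly in endothelial-like barcodes. Its level there was 1058 CPM in OVX (276 UMIs in 34 barcodes), 972 CPM in OVX_E2, 1180 CPM in OVX_E2_PBDE, 545 CPM in OVX_E2_P4 (443 to 664, 99 UMIs in 27 barcodes) and 1102 CPM in OVX_E2_P4_PBDE. The first 3 and the last lay between 972 and 1180 CPM and OVX_E2_P4 was lowest. Fibroblast-like barcodes held 0.453 to 1.75 CPM, L-Hor-like 0.198 to 1.48 CPM and hematopoietic-like 0 to 3.09 CPM. After thinning, 55.6% to 83.3% of endothelial-like barcodes held *Rbp7*, against 0 to 0.840% of hematopoietic-like barcodes. Endothelial-like barcodes had median depths of 5155 to 9058 UMIs. Among them, *Rbp7* was at 1083 CPM in the 205 with more endothelial than pericyte UMIs and at 659 CPM in the 28 with more pericyte UMIs.

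OVX_E2_P4 was 0.566-fold OVX_E2 for endothelial *Rbp7* (0.447 to 0.699), and OVX_E2_P4_PBDE was 2.01-fold OVX_E2_P4 (1.61 to 2.55). Both ratios rest on the same 27 barcodes of OVX_E2_P4. The ratios of OVX_E2 to OVX (0.918) and of OVX_E2_P4_PBDE to OVX_E2_PBDE (0.935) were near 1. OVX_E2_PBDE was 1.23-fold OVX_E2 (1.08 to 1.40) once the 2 barcodes with the most UMIs were left out of each library.

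*Rbp7* had a second, lower place in the epithelium, in proliferating luminal-like barcodes. Its level there was 46.1 CPM in OVX_E2, 31.3 CPM in OVX_E2_PBDE and 55.6 CPM in OVX_E2_P4, the libraries in which that class was found at the main settings. In L-Alv-like barcodes it was 17.2 CPM in OVX (4 UMIs), 11.8 CPM in OVX_E2, 8.21 CPM in OVX_E2_PBDE, 4.97 CPM in OVX_E2_P4 and 22.8 CPM in OVX_E2_P4_PBDE (39 UMIs). Within the L-Alv-like class it moved with the 5 markers of cycling cells (*Ube2c*, *Ccnb2*, *Cdk1*, *Mki67* and *Top2a*). The 48 L-Alv-like barcodes with a UMI of any of them held 53.7 CPM (38.0 to 73.7) and the 1074 without held 6.73 CPM (5.37 to 8.32), at median depths of 13264 and 9120 UMIs. OVX_E2_P4_PBDE gave 26 of the 38 UMIs of the first group, with 74.9 CPM against 9.55 CPM, and each other library gave 3, with 12.9 to 168 CPM against 4.66 to 10.5 CPM. The group with such a UMI was thus higher in each of the 5 libraries, on very few UMIs outside OVX_E2_P4_PBDE. The endothelial markers, summed over libraries, were at 22.6 CPM in the group with such a UMI and 8.0 CPM in the group without. *Rbp7* was at 53.7 and 6.73 CPM in the same groups, and the part of endothelial RNA in these levels was not tested. Proliferating luminal-like barcodes with such a UMI held 52.8 CPM (46.3 to 59.9) and those without held 34.3 CPM (27.2 to 42.7). By library the intervals lay apart in OVX_E2 (58.2 against 28.5 CPM) and overlapped in OVX_E2_PBDE (32.0 against 28.3 CPM) and OVX_E2_P4 (57.5 against 51.04 CPM). In mixed luminal barcodes the levels were 3.61 and 3.30 CPM and in L-Hor-like barcodes 2.14 and 0.934 CPM, with overlapping intervals. The difference was thus clear of counting error in L-Alv-like barcodes summed over libraries and in the proliferating luminal-like barcodes of OVX_E2, and was not resolved in the others.

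OVX_E2_P4_PBDE was 4.57-fold OVX_E2_P4 for *Rbp7* in L-Alv-like barcodes (2.81 to 7.58). Of the 39 UMIs behind that value, 19 came from 2 barcodes and 26 from the 24 barcodes with a proliferation UMI after thinning. Without the 2 barcodes the level was 12 CPM. At the main settings no cluster of that library was named proliferating luminal-like. At resolution 1 a cluster of 38 of its barcodes was, and its L-Alv-like class then held 125 barcodes in place of 161. The proliferation score of that class was 0.594 at the main settings and 0.0118 at resolution 1. The ratio thus compares L-Alv-like classes of unlike make-up, and the part of cycling cells in it was not tested.

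**Figure D3:**
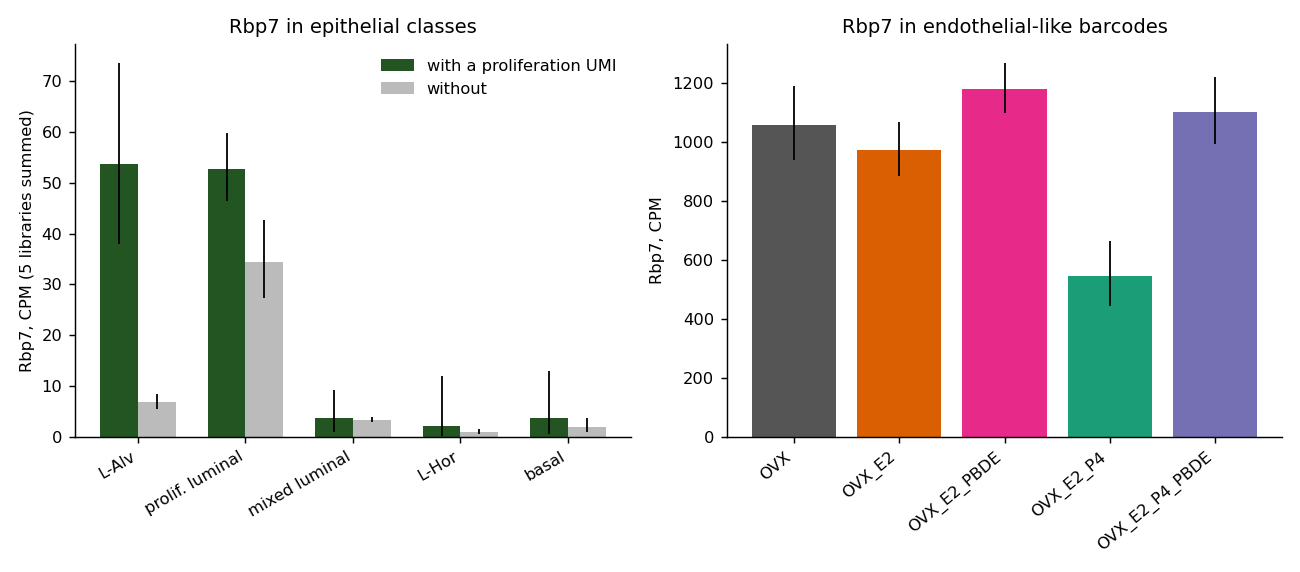
*Rbp7* level (y axes, CPM, bars with exact 95% Poisson intervals) in epithelial classes summed over the 5 libraries, split into barcodes with and without a UMI of 5 proliferation markers (left), and in endothelial-like barcodes by library (right). L-Alv-like barcodes with such a UMI reach 53.7 CPM against 6.73 CPM without, and OVX_E2_P4 is lowest among the endothelial-like values at 545 CPM.

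*Rbp4* (chr19:38116629-38125281, minus strand, 6 exons), the plasma retinol carrier, was a fibroblast gene. Over all fibroblast-like barcodes it was at 48.4 CPM in OVX, 49.2 CPM in OVX_E2, 36.8 CPM in OVX_E2_PBDE, 56.9 CPM in OVX_E2_P4 and 34.4 CPM in OVX_E2_P4_PBDE, so the PBDE libraries were lowest. Each PBDE library was lower than its counterpart, with ratios of 0.747 (0.650 to 0.862) and 0.607 (0.492 to 0.741), neither past 2-fold. Among genes with 50 or more UMIs, 18.2% and 5.52% had ratios at least as low. The *Pi16* subset held the least in every library, 17.6 to 28.6 CPM, and the *Inmt* (77.0 to 109.5 CPM), *Col15a1* (62.0 to 118.5 CPM) and *Spon1* (65.0 to 105 CPM) subsets overlapped each other. The *Pi16* subset was also a larger share of fibroblast-like barcodes with PBDE, at 69.3% against 63.2% in OVX_E2 and 72.3% against 54.2% in OVX_E2_P4. The part of that share in the ratios was not tested. Hematopoietic-like barcodes held 2.26 to 14.4 CPM of *Rbp4*. *Rbp4* is also known from adipocytes, and 7 adipocyte markers summed to 0.987 to 2.99 CPM in fibroblast-like barcodes, with 1 *Adipoq* UMI among 7250 of them.

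Among the synthesis enzymes, *Aldh1a3* (chr7:66390890-66427517, minus strand, 13 exons) marked the *Pi16* subset and L-Alv-like cells. In the *Pi16* subset its level was 201 CPM in OVX (191 to 211), 146 CPM in OVX_E2 (135 to 158), 193 CPM in OVX_E2_PBDE (185 to 202), 211 CPM in OVX_E2_P4 (195 to 228) and 188 CPM in OVX_E2_P4_PBDE (172 to 204). OVX_E2 was the lowest and its interval lay apart from the other 4. The *Inmt* subset held 7.02 to 29.0 CPM, the *Spon1* subset 2.93 to 12.5 CPM and the *Col15a1* subset 0 to 12.4 CPM, all far under the *Pi16* subset. After thinning, 32.7% to 45.4% of *Pi16* barcodes held *Aldh1a3*, against 0.840% to 11.8% of hematopoietic-like barcodes, at median depths of 4240 to 7191 UMIs.

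In L-Alv-like barcodes *Aldh1a3* was at 112 CPM in OVX, 126 CPM in OVX_E2, 116 CPM in OVX_E2_PBDE, 126 CPM in OVX_E2_P4 and 77.3 CPM in OVX_E2_P4_PBDE. Only the last was set apart, at 0.618-fold OVX_E2_P4 (0.507 to 0.739) and 0.671-fold OVX_E2_PBDE (0.542 to 0.820). The L-Alv-like class of that library held 161 barcodes, but 125 at resolution 1, where 38 barcodes were named proliferating luminal-like. L-Hor-like barcodes held 4.38 to 10.4 CPM, under the 12.2 to 41.3 CPM of hematopoietic-like barcodes in every library, and no expression is read from that level. After thinning, *Crabp2*, the other member high in this class, was found in 22.6% (17.6% to 28.3%) of L-Alv-like barcodes with *Aldh1a3* and in 22.2% (19.5% to 25.1%) of those without.

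No contrast of *Aldh1a3* in the *Pi16* subset was past 2-fold. OVX_E2 was 0.727-fold OVX (0.661 to 0.798), and OVX_E2_P4 and OVX_E2_PBDE were 1.45-fold (1.29 to 1.62) and 1.32-fold (1.21 to 1.45) OVX_E2, which is the shared denominator of both. OVX_E2_P4_PBDE was 0.890-fold OVX_E2_P4 (0.791 to 0.999).

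*Aldh1a1* (chr19:20492715-20643465, plus strand, 16 exons), another retinaldehyde dehydrogenase, was spread over all fibroblast subsets. Over fibroblast-like barcodes it was at 59.3 CPM in OVX, 65.5 CPM in OVX_E2, 58.2 CPM in OVX_E2_PBDE, 40.2 CPM in OVX_E2_P4 and 42.4 CPM in OVX_E2_P4_PBDE. The libraries with P4 were lowest. OVX_E2_P4 was 0.614-fold OVX_E2 (0.520 to 0.722) and OVX_E2_P4_PBDE was 0.732-fold OVX_E2_PBDE (0.614 to 0.861), the same direction in both pairs and past 2-fold in neither. The *Spon1* subset of OVX stood out at 213 CPM, against 37.4 to 67.7 CPM in the other libraries, and without OVX the *Pi16* subset had the highest mean. Luminal classes held at most 10.4 CPM, beside 0 to 16.9 CPM in hematopoietic-like barcodes. The neighbouring gene *Aldh1a7* is close in sequence to *Aldh1a1*. Of the 451 words of 50 bases in the last 500 bases of the *Aldh1a1* transcript, where this kit reads, none is shared with *Aldh1a7*.

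*Aldh1a2* (chr9:71215789-71296243, plus strand, 14 exons), the retinaldehyde dehydrogenase of many embryonic tissues, gave 18 UMIs in 16 of 14344 barcodes. Of these barcodes 13 were hematopoietic-like, 2 L-Alv-like and 1 fibroblast-like. At this depth it was not detectable as a fibroblast or luminal gene, since 3 counts correspond to 0.212 to 0.748 CPM in fibroblast-like barcodes.

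**Figure D4:**
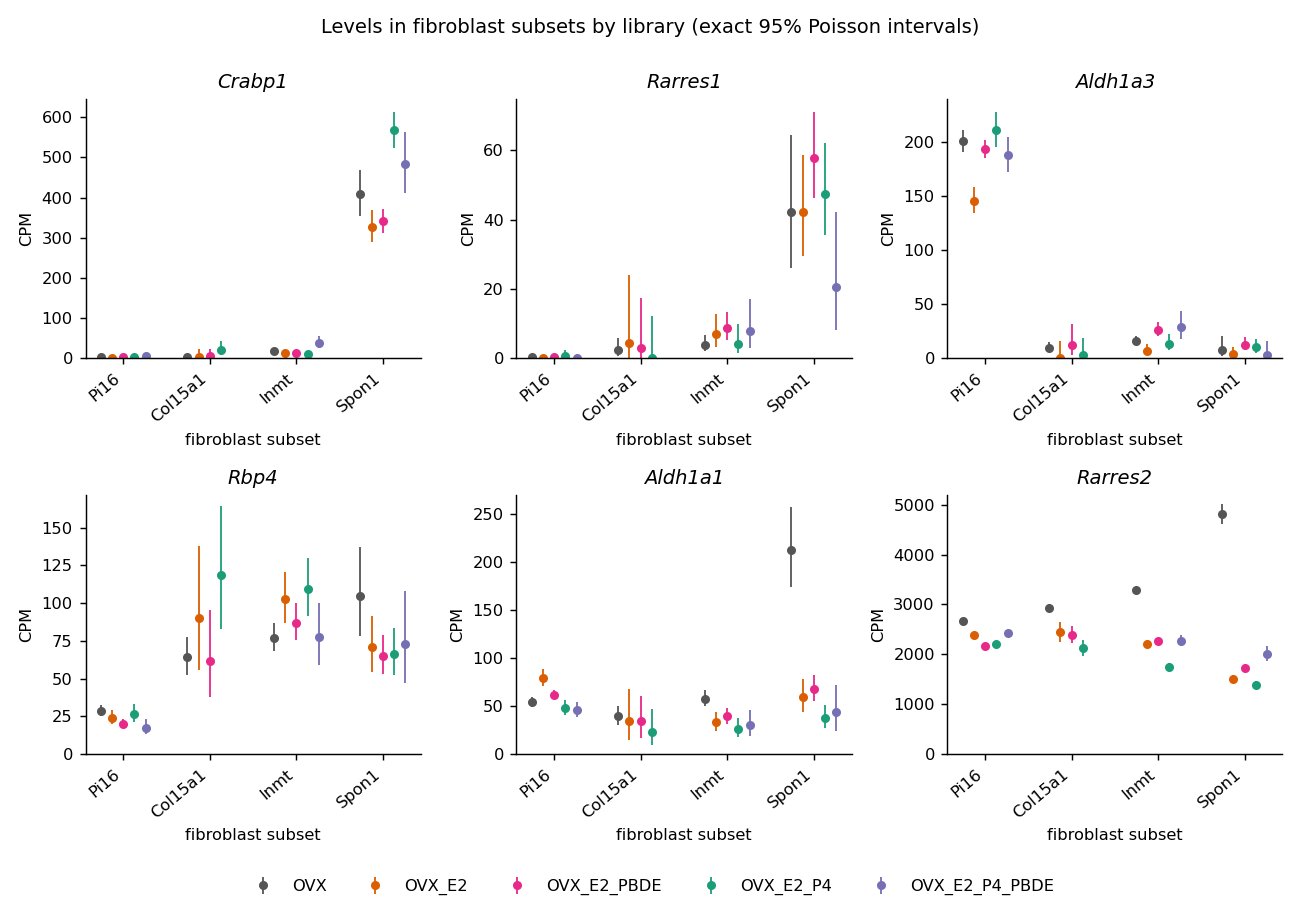
Levels of 6 of the genes (y axis, CPM) in 4 fibroblast subsets (x axis) of the 5 libraries (colours), as points with exact 95% Poisson intervals; the *Col15a1* subset of OVX_E2_P4_PBDE, with 16 barcodes, is left out. *Crabp1* and *Rarres1* are highest in the *Spon1* subset of every library and *Aldh1a3* in the *Pi16* subset of every library.

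*Rarres1* (chr3:67478972-67515523, minus strand, 6 exons), a membrane protein related to the carboxypeptidase inhibitor latexin, shared the *Spon1* subset with *Crabp1*. Its level there was 42.2 CPM in OVX (21 UMIs), 42.2 CPM in OVX_E2 (35 UMIs), 57.8 CPM in OVX_E2_PBDE (88 UMIs), 47.5 CPM in OVX_E2_P4 (52 UMIs) and 20.5 CPM in OVX_E2_P4_PBDE (8.25 to 42.3, 7 UMIs). The last was lowest, with an interval that overlapped those of OVX, OVX_E2 and OVX_E2_P4 (35.5 to 62.2) but not that of OVX_E2_PBDE (46.4 to 71.2). The *Pi16* subset held at most 0.661 CPM and the *Inmt* subset 3.92 to 8.63 CPM. No barcode in the subset held 5 or more *Rarres1* UMIs, at 7 to 88 UMIs per library. The 2 barcodes with the most held 7.69% of them in OVX_E2_P4 to 42.9% in OVX_E2_P4_PBDE (3 of 7 UMIs). The corresponding shares of *Crabp1* were 8.67% to 33.6%.

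After thinning, *Rarres1* was found in 18.1% (13.7% to 23.3%) of the 265 *Spon1*-subset barcodes with *Crabp1* and in 9.98% (7.37% to 13.1%) of those without. The order was not the same in every library. It was 21.3% against 4.48% in OVX, 11.1% against 12.5% in OVX_E2, 21.0% against 13.7% in OVX_E2_PBDE, 21.9% against 7.21% in OVX_E2_P4 and 3.57% against 8.51% in OVX_E2_P4_PBDE. In OVX_E2 and OVX_E2_P4_PBDE the barcodes with *Crabp1* held *Rarres1* in the smaller share.

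Over all fibroblast-like barcodes *Rarres1* was at 3.06 CPM in OVX, 6.94 CPM in OVX_E2, 8.04 CPM in OVX_E2_PBDE, 10.5 CPM in OVX_E2_P4 and 3.24 CPM in OVX_E2_P4_PBDE. OVX and OVX_E2_P4_PBDE, the libraries with the smallest *Spon1* subset, were lowest. OVX_E2_P4_PBDE was 0.326-fold OVX_E2_P4 (0.155 to 0.568) and 0.431-fold OVX_E2_PBDE (0.208 to 0.718), on 13 UMIs. Within the subset the same ratios were 0.485 (0.166 to 0.955) and 0.401 (0.139 to 0.762), so it was lower within the subset of that library too. OVX_E2 was 2.27-fold OVX over all fibroblast-like barcodes and 0.981-fold within the subset.

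*Rarres2* (chr6:48569696-48572789, minus strand, 3 exons), the chemerin gene, was expressed throughout the fibroblasts. It was at 2948 CPM in OVX, 2246 CPM in OVX_E2, 2146 CPM in OVX_E2_PBDE, 1948 CPM in OVX_E2_P4 and 2365 CPM in OVX_E2_P4_PBDE, and after thinning 96.5% to 99.6% of fibroblast-like barcodes held it. OVX was the highest, and OVX_E2 was 0.762-fold OVX (0.748 to 0.776). The *Pi16*, *Inmt* and *Col15a1* subsets held 1741 to 3298 CPM, and the *Spon1* subset held 4812 CPM in OVX and 1389 to 2004 CPM elsewhere. The gene *Lrrc61* overlaps it on the opposite strand.

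*Rarres2* UMIs also appeared outside the fibroblasts. Hematopoietic-like barcodes held 858, 325, 495, 70.4 and 263 CPM of *Rarres2* in the order of the libraries above, and 12.6% to 52.5% of them had it after thinning. L-Hor-like barcodes held 48.2 to 226 CPM and L-Alv-like barcodes 46.4 to 202 CPM, at or below the hematopoietic-like level of the same library in every library. The ratios of OVX_E2 to OVX were 0.334 and 0.249 in these classes. The fibroblast markers were also higher in hematopoietic-like than in luminal barcodes, and the part of free RNA in the luminal *Rarres2* level was not tested. Endothelial-like barcodes held 613 CPM in OVX, 442 CPM in OVX_E2, 522 CPM in OVX_E2_PBDE, 419 CPM in OVX_E2_P4 and 477 CPM in OVX_E2_P4_PBDE. That is above the hematopoietic-like level in all libraries but OVX, and only narrowly in OVX_E2_PBDE.

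Contrasts between libraries were also counted by a common rule, a ratio of at least 2 or at most 0.5. It was applied to genes whose UMIs in the class, added over the libraries compared, came to 50 or more. In fibroblast-like barcodes 6 members had that many UMIs. For OVX_E2 against OVX, 2 of 6 members were past 2-fold, *Crabp1* and *Rarres1*, beside 3.92% of all genes measured this way. For OVX_E2_P4 against OVX_E2 it was 1 of 6, *Crabp1*, beside 1.58% of all genes. For OVX_E2_PBDE against OVX_E2 it was 0 of 6, beside 1.37%. For OVX_E2_P4_PBDE against OVX_E2_P4 it was 2 of 6, *Crabp1* and *Rarres1*, beside 2.3%, and against OVX_E2_PBDE it was 1 of 6, *Rarres1*, beside 1.96%. The shares exceed the background on very few genes, and each case is *Crabp1* or *Rarres1*, the 2 members highest in the *Spon1* subset in every library. The median log2 ratio of the 6 members was 0.09, 0.28, -0.11, -0.32 and -0.06 in these 5 contrasts, where that of all genes was 0.05, -0.06, -0.18, -0.09 and 0.00.

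Within the *Pi16* subset 0 of 4 members were past 2-fold in each of the 5 contrasts, beside 2.78%, 1.86%, 1.33%, 1.32% and 1.95% of all genes in the same order. Within the *Spon1* subset 2 of 5 were past it for OVX_E2 against OVX, *Aldh1a1* at 0.280 (0.193 to 0.392) and *Rarres2* at 0.313, beside 9.82% of all genes, and both rest on the OVX subset that differs in its markers. *Rarres1* was the single member past it for OVX_E2_P4_PBDE against OVX_E2_P4 (1 of 5, beside 3.0%) and against OVX_E2_PBDE (1 of 5, beside 3.27%), and 0 of 5 were past it in the other contrasts (beside 1.86% and 1.71%). In the *Inmt* subset *Aldh1a3* was at 3.46-fold OVX_E2 in OVX_E2_PBDE (1.91 to 8.20), 1 of 5 members beside 1.34% of all genes, on 61 against 10 UMIs. *Crabp1* in that subset was 2.87-fold OVX_E2_PBDE in OVX_E2_P4_PBDE (1.66 to 4.91), 1 of 5 members beside 2.64%. *Aldh1a3* was 0.484-fold OVX in OVX_E2 (1 of 5, beside 4.86%), and 0 of 3 were past 2-fold in the other contrasts of that subset (beside 1.58% and 2.19%). The *Inmt* subset of OVX also differed in its markers, with *Inmt* at 649 CPM against 110 CPM in OVX_E2 and *Lrrc15* at 1.68 against 26.7 CPM.

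In L-Hor-like barcodes 1 to 3 members reached 50 UMIs. *Rarres2* was past 2-fold for OVX_E2 against OVX (1 of 1, beside 9.38%), *Crabp2* for OVX_E2_P4 against OVX_E2 (1 of 3, beside 1.54%) and *Aldh1a3* for OVX_E2_P4_PBDE against OVX_E2_P4 (1 of 3, beside 2.71%). The *Rarres2* and *Aldh1a3* levels lay below those of hematopoietic-like barcodes of the same libraries, and *Crabp2* was at 5.66 CPM beside 5.42 CPM. The other contrasts gave 0 of 2 (beside 1.56% and 1.74%). In L-Alv-like barcodes *Crabp2* and *Rarres2* were past it for OVX_E2 against OVX (2 of 3, beside 10.4%). *Rbp7* was past it for OVX_E2_P4 against OVX_E2 (1 of 4, beside 1.87%), for OVX_E2_P4_PBDE against OVX_E2_P4 (1 of 4, beside 4.61%) and against OVX_E2_PBDE (1 of 4, beside 3.7%), and 0 of 3 members were past it for OVX_E2_PBDE against OVX_E2 (beside 1.51%). In endothelial-like barcodes *Rbp7* was past it for OVX_E2_P4_PBDE against OVX_E2_P4 (1 of 2, beside 3.02%), and 0 of 2 members were past it in the other contrasts (beside 3.43%, 3.42%, 2.65% and 3.04%). In proliferating luminal-like barcodes *Crabp2* was past it for OVX_E2_P4 against OVX_E2 (1 of 4, beside 2.97%) and 0 of 4 for OVX_E2_PBDE against OVX_E2 (beside 3.54%).

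**Figure D5:**
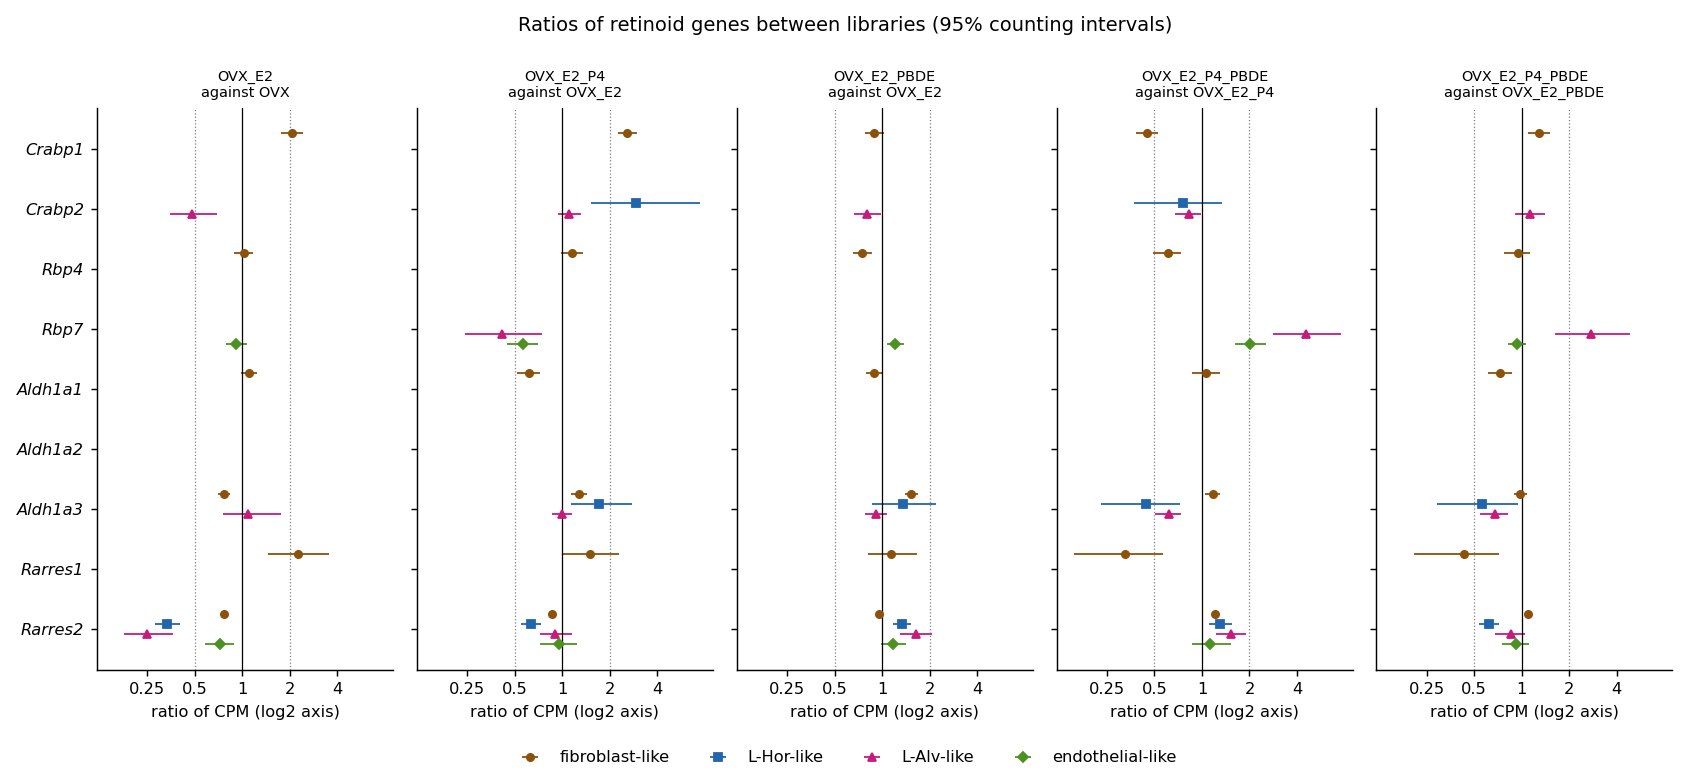
Ratios between libraries (x axis, log2 scale, with 95% counting intervals) for the members with 50 or more UMIs in the contrast, in 5 contrasts (panels) and 4 cell classes (colours), with dotted lines at 0.5 and 2. In fibroblast-like barcodes *Crabp1* and *Rarres1* lie beyond a line in several contrasts, while *Rbp4*, *Aldh1a1*, *Aldh1a3* and *Rarres2* stay between the lines in all 5.

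The wider retinoid pathway was taken from a list of 32 genes, all found, covering uptake, oxidation, degradation, receptors, chemerin receptors and response genes. In fibroblast-like barcodes 3 of 20 with enough UMIs were past 2-fold for OVX_E2 against OVX, the retinoic acid target *Tgm2* (2.20-fold), the latexin gene *Lxn* (2.20-fold) and the chemerin receptor gene *Cmklr1* (0.422-fold). This stands beside 3.92% of all genes. The corresponding counts were 1 of 20 for OVX_E2_P4 against OVX_E2 (beside 1.58%), 0 of 21 for OVX_E2_PBDE against OVX_E2 (beside 1.37%), 2 of 19 for OVX_E2_P4_PBDE against OVX_E2_P4 (beside 2.3%) and 1 of 21 against OVX_E2_PBDE (beside 1.96%). In L-Hor-like barcodes 0 of 11 were past 2-fold in each of the 5 contrasts, beside 9.38%, 1.54%, 1.56%, 2.71% and 1.74% of all genes. In L-Alv-like barcodes, 2 of 7 were past it as higher and 1 as lower for OVX_E2 against OVX, beside 10.4%. For OVX_E2_P4 and OVX_E2_PBDE against OVX_E2 it was 0 of 12 (beside 1.87%) and 1 of 11 (beside 1.51%). For OVX_E2_P4_PBDE it was 1 of 12 against OVX_E2_P4 (beside 4.61%) and 0 of 11 against OVX_E2_PBDE (beside 3.7%).

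*Stra6*, the cell-surface receptor through which RBP4-bound retinol enters cells, lay in the same fibroblast subset as *Crabp1*. In the *Spon1* subset *Stra6* was at 6.03 CPM in OVX (3 UMIs), 35.0 CPM in OVX_E2, 53.9 CPM in OVX_E2_PBDE, 62.1 CPM in OVX_E2_P4 and 46.9 CPM in OVX_E2_P4_PBDE, and its mean in the other 3 subsets was at most 2.68 CPM. OVX was lowest. After thinning, *Stra6* was found in 18.1% (13.7% to 23.3%) of the barcodes of this subset with *Crabp1* and in 7.76% (5.46% to 10.6%) of those without, and the first share was the larger in each of the 5 libraries, in OVX on 1 barcode. Over all fibroblast-like barcodes *Stra6* was 2.85-fold OVX_E2 in OVX_E2_P4 (1.89 to 4.56) and 0.399-fold OVX_E2_P4 in OVX_E2_P4_PBDE (0.226 to 0.633).

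Other genes of retinoid handling were spread differently. *Dhrs3*, which reduces retinaldehyde back to retinol, had means of 119 CPM in the *Spon1* subset and 105 CPM in L-Hor-like barcodes. The receptor gene *Rarg* was highest in the *Pi16* subset, with a mean of 59.0 CPM, where *Aldh1a3* was also highest. *Gpr1*, a receptor of chemerin, had its highest mean, 45.3 CPM, in that subset too, while the chemerin receptors *Cmklr1* (21.4 CPM) and *Ccrl2* (136 CPM) were highest in the *Col15a1* subset and in hematopoietic-like barcodes. *Cyp26b1*, which degrades retinoic acid, had means of 50.03 CPM in endothelial-like barcodes and 26.7 CPM in the *Col15a1* subset.

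The genes most like each member were ranked by Pearson correlation of log2(CPM + 1) over 47 points, each 1 class or subset in 1 library, which share libraries and class composition. *Crabp1* was nearest to *a* (r = 0.914), the nonagouti gene, then to *Mfap4* (0.885) and *Stra6* (0.838). *Crabp2* was nearest to *Csn3* (0.946), *Ltf* (0.910) and *Lcn2* (0.907), which encode secreted milk or defence proteins. *Rbp4* was nearest to *Lum* (0.954), a matrix proteoglycan gene, and *Aldh1a1* to *Dcn* (0.944), another. *Rbp7* was nearest to *Stc1* (0.937), *Aldh1a3* to *Car8* (0.834), *Rarres1* to *Hmcn1* (0.844) and *Rarres2* to *Fxyd1* (0.986). Between members, *Rbp4* and *Aldh1a1* had r = 0.878 and *Crabp1* and *Rarres1* had r = 0.699. These values describe the pattern over classes and carry no test.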

How the data were processed

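Per the labels, mammary glands were dissociated with collagenase and DNase without sorting, about 4000 cells were loaded per library, and 10x Genomics 3′ v2 kits were used. The authors deposited raw UMI counts per gene and barcode, made with Cell Ranger 2.0.0 on mm10 according to the submitters' processing notes.

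Barcodes with at least 500 genes, 1000 UMIs and at most 10% mitochondrial UMIs were clustered per library with Seurat 5.3.0 (2000 variable genes without the members and pathway list, 10 principal components, 20 neighbours, resolution 0.3 for OVX and 0.5 otherwise). Fibroblast-like barcodes of all libraries were then clustered together after scaling within each library (resolution 1, 10 clusters, 4 subsets). Clusters were named by marker score (at least 0.2, and mixed where another score reached 0.5 of the first). Outside the luminal pair the other score also had to reach a fixed minimum. Through that minimum alone, a cluster of OVX_E2_PBDE (626 barcodes, fibroblast score 0.285, L-Hor score 0.157) was named fibroblast-like and not mixed. The same held for a cluster of OVX_E2_P4 (504 barcodes, scores 0.372 and 0.186). Clusters led by the endothelial and pericyte scores were exempt and named endothelial-like, and at the main settings both scores were 1 in each. Clusters led by both luminal scores were named proliferating luminal-like where the proliferation score reached 0.5. These naming thresholds and the fibroblast resolution were set after the clusters were seen. Doublets were treated by the mixed class and by an alternative using Scrublet in scanpy 1.11.5. Barcodes were thinned to 3000 UMIs for shares. Summed counts were expressed as CPM, classes needed 20 barcodes, and the floor for a count of 0 was 3 UMIs. Ratios had 1 UMI added to each sum and conditional binomial 95% intervals (scipy 1.17.1). All 9 members were named, together with the fixed pathway list and, for each member, the 3 most similar genes with at least 200 UMIs. Genes chosen after their values were seen are said to be so. With 1 library per group no model was fitted and no adjusted p-value exists. Simulated counts of OVX_E2 against OVX carried Poisson counting error only, with no variation between cells or animals. In fibroblast-like barcodes (17481 genes), 120 of 120 ranked genes changed 4-fold were past 2-fold the right way, and in endothelial-like barcodes (13237 genes) 47 of 48. The simulation therefore checks the calculation and does not gauge how far the ratios would repeat in other animals. Alternatives were a mitochondrial threshold of 5%, resolution 1 throughout, removal of the top 20% of Scrublet scores, cell-averaged CPM, size-factor scaling, a minimum of 10 UMIs, subtraction of the hematopoietic-like level and separate fibroblast clustering. The members and gene lists were chosen with earlier results of these data known. The values of 1 gene of the pathway list are not reported here.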

Additional observations from a re-analysis of the deposited data

Results flagged for a closer look

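In 9 cases the ratios of the same agent in 2 settings lay on opposite sides of 1 with intervals that excluded 1. The share of all genes that meet this rule was not computed, so the count has no background. The cases are not separate. Those of *Rarres2* come from fibroblast-like barcodes and from subsets of them, and P4 and PBDE are compared over the same libraries. Each setting has 1 library per group, so these differences were not tested.

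For P4, given without and then with PBDE, *Rbp7* in L-Alv-like barcodes had ratios of 0.417 (0.241 to 0.748) and 2.74 (1.63 to 4.83), *Rarres1* in fibroblast-like barcodes 1.51 (1.01 to 2.28) and 0.431 (0.208 to 0.718), and *Aldh1a3* in L-Hor-like barcodes 1.71 (1.13 to 2.76) and 0.561 (0.288 to 0.947). The *Rbp7* value with PBDE has 19 of 39 UMIs from 2 barcodes, and the *Aldh1a3* levels lie under those of hematopoietic-like barcodes. At resolution 1 the L-Alv-like class of OVX_E2_P4_PBDE held 125 barcodes in place of 161, and 38 were named proliferating luminal-like. The *Rarres1* ratio with PBDE rests on 13 UMIs of OVX_E2_P4_PBDE. Within the *Spon1* subset, without the 2 barcodes of most UMIs, the *Rarres1* ratios were 1.14 (0.718 to 1.87) and 0.280 (0.0603 to 0.604). The ratios of that subset's share of barcodes were 1.57 and 0.714. *Rarres2*, whose many UMIs make small ratios clear of 1, had 0.867 and 1.10 in fibroblast-like barcodes, 0.924 and 1.12 in the *Pi16* subset, and 0.923 and 1.16 in the *Spon1* subset.

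For PBDE, given without and then with P4, *Aldh1a3* in the *Pi16* subset had ratios of 1.32 (1.21 to 1.45) and 0.890 (0.791 to 0.999). *Rarres2* had 0.955 and 1.21 in fibroblast-like barcodes and 0.906 and 1.10 in the *Pi16* subset.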

How the results depend on the processing

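Of 58 counts of members or of member-contrast pairs recomputed under an alternative, 44 stayed within 1.5 times the reported count and 14 did not. Direction was followed only for the 15 pairs past 2-fold, and none of these turned. Some ratios nearer 1 did turn without the 2 barcodes of most UMIs. *Crabp1* in fibroblast-like barcodes became 1.04 for OVX_E2_PBDE to OVX_E2, and *Rbp7* in endothelial-like barcodes 1.07 for OVX_E2 to OVX, both below 1 before. Members highest in endothelial-like barcodes fell from 2 to 1 (*Rbp7*) with a mitochondrial threshold of 5% or without OVX, and members highest in the *Spon1* subset from 4 to 2 without OVX. The 3 pairs past 2-fold in L-Hor-like barcodes became 9 with a minimum of 10 UMIs and 0 after subtraction of the hematopoietic-like level. The 5 pairs in L-Alv-like barcodes became 3 at 5% mitochondrial UMIs, 3 at resolution 1, 3 without OVX, 9 with a minimum of 10 UMIs and 1 without the 2 barcodes of most UMIs. The single pair in endothelial-like barcodes became 0 at 5% mitochondrial UMIs, 0 without the top Scrublet scores, 2 with a minimum of 10 UMIs and 4 after subtraction. Of the 15 pairs past 2-fold, 10 were past it in every alternative that gave a ratio. These alternatives include a minimum of 10 UMIs and leaving out OVX, which cannot change the ratio of a pair they keep. Both *Rbp7* pairs of OVX_E2_P4_PBDE in L-Alv-like barcodes had no ratio at 5% mitochondrial UMIs, at resolution 1 or without the 2 barcodes. That of OVX_E2_P4 to OVX_E2 in the same class had none without the 2 barcodes. The *Rbp7* pair in endothelial-like barcodes had none at 5% mitochondrial UMIs or without the top Scrublet scores. The exceptions were *Crabp1* in fibroblast-like barcodes for OVX_E2 to OVX (past in 2 of 7 alternatives, 1.72 to 2.06) and for OVX_E2_P4_PBDE to OVX_E2_P4 (8 of 9), *Rarres1* in fibroblast-like barcodes for OVX_E2_P4_PBDE to OVX_E2_PBDE (8 of 9, 0.315 to 0.578), *Aldh1a3* in L-Hor-like barcodes (7 of 8) and *Crabp2* in L-Alv-like barcodes (6 of 8). The causes were not tested. Leaving out OVX, leaving out the 2 barcodes with most UMIs and a fibroblast resolution of 0.5 were chosen after seeing the data. No ratio was given after subtraction where a level came within 3 UMIs of the subtracted one. No paired analysis was possible because each group has 1 library. Few barcodes stood behind the endothelial-like values (27 to 72), the OVX L-Alv-like values (32) and the *Col15a1* values of 3 treated libraries (34 to 59).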

Other observations

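The 13 hematopoietic-like barcodes with *Aldh1a2* held macrophage-associated transcripts at higher levels than the 519 others. *Lyz1* was 15.7-fold higher, *Fcrls* 11-fold, *Ear2* 11-fold and *Retnla* 10.9-fold. These genes were picked after their values were seen, from 13 barcodes, and carry no test. The genes most like *Aldh1a2* over the 47 points, *Fcrls* (r = 0.970), *Clec4a2* (0.962) and *Ly86* (0.960), rest on its 18 UMIs.

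Among 3315 proliferating, L-Alv-like and mixed luminal barcodes, 26 held 5 or more *Rbp7* UMIs. Of these, 23 were proliferating luminal-like and 3 were L-Alv-like. Compared with the 3035 barcodes without *Rbp7*, mitotic genes led the list of ratios, with *Ccnb2* 18.2-fold, *Ube2c* 16-fold and *Birc5* 15.0-fold higher. *Ccnb2* and *Ube2c* are among the markers that named the proliferating luminal-like class, so their high ratios are built into this comparison. It does not show whether *Rbp7* goes with mitotic genes within that class. The endothelial gene *Pecam1* was at 4.45 CPM against 4.16 CPM. Of the other endothelial markers, *Kdr* (2.67 against 0.926 CPM) and *Cdh5* (1.78 against 0.454 CPM) were higher in the 26 barcodes. *Egfl7* was lower (3.56 against 6.66 CPM), and *Cldn5* and *Emcn* had 0 UMIs there. These levels rest on 2 to 5 UMIs each and do not resolve a difference. *Csn3*, a milk protein gene, was at 2231 CPM against 1206 CPM. The other L-Alv markers listed did not differ as much, with *Wfdc18* at 1728 against 1291 CPM and *Kit* at 37.4 against 38.6 CPM. *Prlr* and *Pgr*, genes of the hormone-sensing lineage, were at 251 against 844 CPM and 26.7 against 67.4 CPM. These genes were likewise chosen after their values were seen. The 26 included no mixed luminal barcode, a class with markers of both lineages, and the part of class make-up in these levels was not tested.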
